A study of Mus musculus with 6 samples.

Results

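Npy and Cnr1, 2 of the 12436 genes measured, were examined in the fibro-adipogenic progenitors (FAPs) and other stromal cells of regenerating mouse muscle. The pair was chosen by measured values, namely summed levels that stood high in stromal cells of hypothyroid muscle, so the levels below describe that choice and were not tested. Single-cell RNA-seq libraries had been made from the tibialis anterior muscle without injury (day 0) and on days 5 and 14 after an injection of cardiotoxin (CTX, a snake venom toxin that kills muscle fibers, at 50 µg/ml). Mice were either on a control diet or made hypothyroid by a low-iodine diet with 0.15% propylthiouracil (PTU), a drug that blocks thyroid hormone synthesis, begun 3 weeks before injury. All 6 groups carried the Fucci2aR cell-cycle reporter allele at the ROSA26 locus on a mixed B6;129 background without Cre, and mice were 3 to 5 months old. Each group was 1 library made from 3 pooled male mice, so animals could not be separated, no difference between diets could be tested, and every interval below is a 95% interval that covers counting error only.

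NPY is a short secreted peptide best known from sympathetic nerves, where it is released with noradrenaline, and from neurons that drive feeding. It acts on G protein-coupled receptors, of which the Y1 receptor on vascular smooth muscle raises vessel tone, and it is trimmed or degraded by peptidases at the cell surface. CB1, the product of Cnr1, is the G protein-coupled receptor of the brain that responds to cannabis compounds and to the endocannabinoids, lipids made on demand from membrane phospholipids and broken down by hydrolases.

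Both genes are protein coding and lie on the forward strand. In the coordinates of the files (GRCm39), Npy spans chromosome 6, 49799690 to 49806488, and its canonical transcript has 4 exons. Cnr1 spans chromosome 4, 33924593 to 33948832, with 2 exons. Since the comparison was one of thyroid status, the RefSeq promoter windows of both genes (GRCm38.p6, 250 bases before to 50 after a transcription start) were searched on both strands for AGGTCA, the half-site that nuclear receptors such as the thyroid hormone receptors bind, for TGACGTCA, the cAMP response element, and for TGACTCA, the AP-1 site. The windows of Npy and of the first Cnr1 start are shown because they are the stretches searched, with the matched bases in capitals:
Npy, chr6:49822460-49822759, forward strand: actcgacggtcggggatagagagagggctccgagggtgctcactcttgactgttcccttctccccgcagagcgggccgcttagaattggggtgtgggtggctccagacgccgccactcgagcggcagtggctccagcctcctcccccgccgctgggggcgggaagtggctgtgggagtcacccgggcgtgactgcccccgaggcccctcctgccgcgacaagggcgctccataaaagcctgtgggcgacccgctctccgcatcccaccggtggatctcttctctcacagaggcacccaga
Cnr1, chr4:33924014-33924313, forward strand: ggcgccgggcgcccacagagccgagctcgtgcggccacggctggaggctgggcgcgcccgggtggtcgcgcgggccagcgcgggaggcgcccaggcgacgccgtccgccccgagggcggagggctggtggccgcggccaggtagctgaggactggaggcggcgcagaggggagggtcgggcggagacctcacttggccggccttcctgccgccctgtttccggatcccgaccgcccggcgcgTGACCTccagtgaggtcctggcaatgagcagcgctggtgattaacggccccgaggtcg
The Npy window held none of the 3 motifs. The Cnr1 window held 1 match, AGGTCA read on the reverse strand, beginning 8 bases upstream of the start, and the windows of the other Cnr1 starts held none. AGGTCA occurred in 16.3% of the 32851 promoter windows of the table, TGACGTCA in 1.79% and TGACTCA in 5.20%. No binding or chromatin was measured, so a match is a description of the letters alone.

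The 6 libraries held 528 to 3294 cells each, with a median of 3634 to 8055 unique molecular identifiers (UMIs, 1 per captured transcript) per cell. The files also held 9062 further columns, of which 1680 were copies of cells of another library and 7382 were cells whose condition is not known. These columns enter only 1 alternative, named as such in the closing section. Of the 11207 cells used, 4714 fell in clusters that carried the FAP markers (among them Pdgfra, Dcn, Gsn and Col3a1) and are called FAP-like. All 10 FAP markers were detected in the FAP-like cells of every library. No cell stood in 2 of the libraries, 12 barcodes occurred in more than 1, and of the 235 cells with Npy none and of the 136 with Cnr1 1 carried such a barcode.

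Npy was not detected in FAP-like cells before injury and was found in a small number of them afterwards, at higher summed levels in the hypothyroid libraries. On day 0, 0 of 751 control and 0 of 299 hypothyroid FAP-like cells held a UMI, which allows a share of up to 0.490% and 1.23%. On day 5, 13 of 420 control cells held 52 UMIs, which is 8.59 UMIs per 1000000 UMIs of these cells (counts per 1000000, CPM, with an interval of 6.42 to 11.3). The hypothyroid library of that day had 894 UMIs in 55 of 878 cells, or 67.1 CPM (62.8 to 71.7). On day 14, 10 of 1510 control cells held 31 UMIs, or 3.50 CPM (2.38 to 4.97). The hypothyroid library then had 703 UMIs in 15 of 856 cells, or 87.1 CPM (80.8 to 93.8). The summed level was thus 7.81-fold higher in hypothyroid than in control FAP-like cells on day 5 (5.90 to 10.5) and 24.9-fold higher on day 14 (17.4 to 36.9). Of all genes that reached 20 UMIs in either diet's pool of cells, 3.55% were at least 2-fold higher in hypothyroid cells on day 5 and 1.85% on day 14. As many as 47 of 11318 genes on day 5 and 6 of 10771 on day 14, Npy included, had a ratio at least as high as that of Npy, the contrast on which it had been chosen.

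The ratio of levels was much larger than the ratio of cell numbers. The share of FAP-like cells with Npy was 3.10% in control (1.66 to 5.23) and 6.26% in hypothyroid muscle (4.75 to 8.08) on day 5, and 0.662% (0.318 to 1.21) and 1.75% (0.984 to 2.87) on day 14. The hypothyroid share was 2.02 times the control share on day 5 and 2.65 times on day 14. The FAP-like cells of both diets also differed in their mix of clusters, given below, and its part in these ratios was not tested. Depth differed little on day 5, with a median of 12982 UMIs per FAP-like cell in control and 14208 in hypothyroid muscle, and more on day 14, with 5645 and 9411. After every cell had been thinned to 1000 UMIs, the shares were 0.242% and 2.0% on day 5 and 0.207% and 0.716% on day 14, and the intervals of the diets overlapped on both days (0.00612 to 1.34 and 1.17 to 3.19 on day 5, 0.0427 to 0.603 and 0.263 to 1.55 on day 14). The remaining difference lay in how many UMIs a positive cell held: a mean of 4 in control and 16.3 in hypothyroid cells on day 5, and 3.10 and 46.9 on day 14.

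A few cells carried most of the transcripts. In the hypothyroid day 5 library the 5 cells with the most Npy held 142, 134, 118, 92 and 70 UMIs, which together made up 62.2% of the UMIs of the class, while 23 of the 55 positive cells held 1 UMI. The cell with 92 fell in cluster 11 of the FAP-like cells, whose leading genes were macrophage genes such as C1qa and Cd74, and the other 4 fell in cluster 6. In the hypothyroid day 14 library the top cells held 370, 109, 68, 63 and 36 UMIs, or 91.9% of all. The cell with 370 had 18906 UMIs in total, which put Npy at 19571 CPM within that cell. The control cells with the most held 19 UMIs on day 5 and 17 on day 14. Control UMIs, though fewer, were also concentrated, with 80.8% on day 5 and 83.9% on day 14 in the 5 top control cells. At least 10 UMIs were found in 16 hypothyroid and 1 control FAP-like cell on day 5, and in 6 and 1 on day 14. Without the 5 top hypothyroid cells the ratio was 2.99 on day 5 (2.23 to 4.08) and 2.04 on day 14 (1.30 to 3.27). In this and the later ratios without 5 cells, every control cell was kept, so the trim was of the hypothyroid side alone. Such concentration was unusual for a gene with at least 20 UMIs: 86 of 11267 genes on day 5 and 27 of 10163 on day 14, Npy included, had as large a share of their UMIs in 5 hypothyroid FAP-like cells, against a median over genes of 8.42% and 9.82%.

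**Figure D1:**
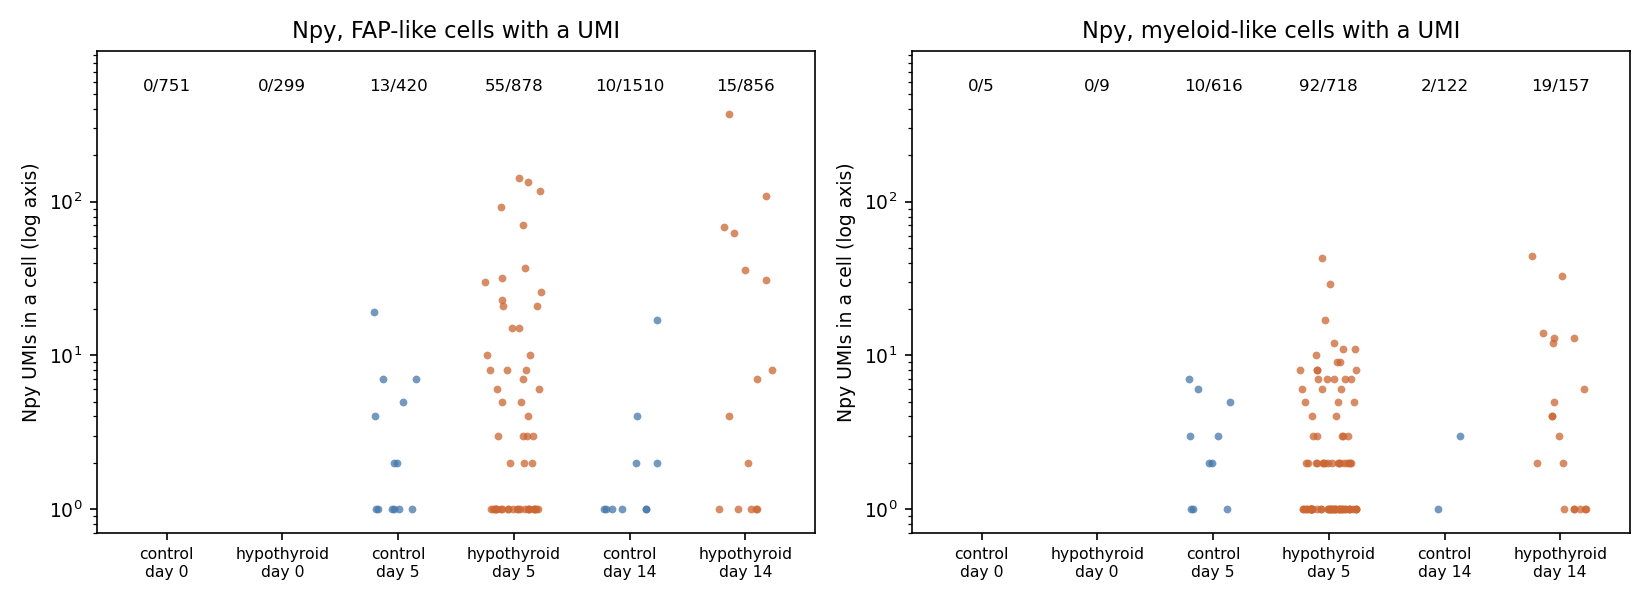
Npy UMIs in each cell that held at least 1, on a log axis, in FAP-like cells (left) and myeloid-like cells (right) of the 6 libraries, with the number of positive cells over all cells of the class above each column. Most positive cells held few UMIs, and the cells above 50 were in the hypothyroid FAP-like class, 5 on day 5 (1 of them in the cluster led by macrophage genes) and 4 on day 14.

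When the FAP-like cells were clustered again without Npy and Cnr1, the Npy transcripts lay in different clusters on day 5 and day 14. On day 5, 771 of the 894 hypothyroid UMIs and 41 of the 52 control UMIs were in cluster 6. This cluster made up 42.1% of hypothyroid and 21.9% of control FAP-like cells on that day. All 7 injury matrix markers (Cthrc1, Tnc, Postn, Lrrc15, Timp1, Ptx3 and Adam12) were raised in that cluster, which was led by Inhba, a subunit of activins, Ereg, a ligand of the EGF receptor, and the chemokine gene Cxcl3. In cluster 6 the share of cells with Npy was 10.0% in hypothyroid (37 of 370, 7.14 to 13.5) and 9.78% in control muscle (9 of 92, 4.57 to 17.8). The level was 111 CPM in hypothyroid and 21.5 CPM in control cells of that cluster, a ratio of 5.20 (3.79 to 7.30), and 1.86 (1.33 to 2.65) without the 5 top hypothyroid cells. Positive cells of the cluster held a median of 7 UMIs in hypothyroid and 2 in control muscle, at a median depth of 17966 and 20074 UMIs per cell. After thinning to 1000 UMIs, 15 of 369 hypothyroid (4.07%, 2.29 to 6.62) and 0 of 92 control cells of the cluster held Npy, and the interval of the latter reached 3.93%. Cluster 4, in which both injury matrix and cell-cycle genes were high, had 11 of 347 hypothyroid and 3 of 229 control cells with Npy on day 5, at 3.81 and 2.86 CPM (ratio 1.33, 0.568 to 3.37).

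On day 14, 698 of the 703 hypothyroid and 22 of the 31 control UMIs were in cluster 1, a cluster led by Igfbp3, an IGF binding protein, and Dlk1, a membrane protein of preadipocytes. All 6 chemokine markers (Ccl2, Ccl7, Cxcl1, Cxcl5, Cxcl2 and Il6) were raised in cluster 1, which was left without a name since Hmcn2, a marker of another list, stood among its 10 leading genes and none of its own did. Cluster 1 made up 46.5% of hypothyroid and 23.6% of control FAP-like cells on day 14. Of its cells, 13 of 398 hypothyroid (3.27%, 1.75 to 5.52) and 5 of 356 control (1.40%, 0.458 to 3.25) held Npy, at 165 and 9.56 CPM. The ratio in cluster 1 was 17.3 (11.3 to 27.8) with all cells and 1.32 (0.785 to 2.27) without the 5 top hypothyroid cells. Cluster 2, the main progenitor cluster of day 14 with Pi16 and Dpp4, had 2 of 211 hypothyroid and 4 of 450 control cells with Npy, and the levels were alike at 2.24 and 2.21 CPM (ratio 1.01, 0.261 to 3.52). Cluster 3, with the interstitial markers Smoc2 and Col15a1, held no Npy UMI in any library.

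**Figure D2:**
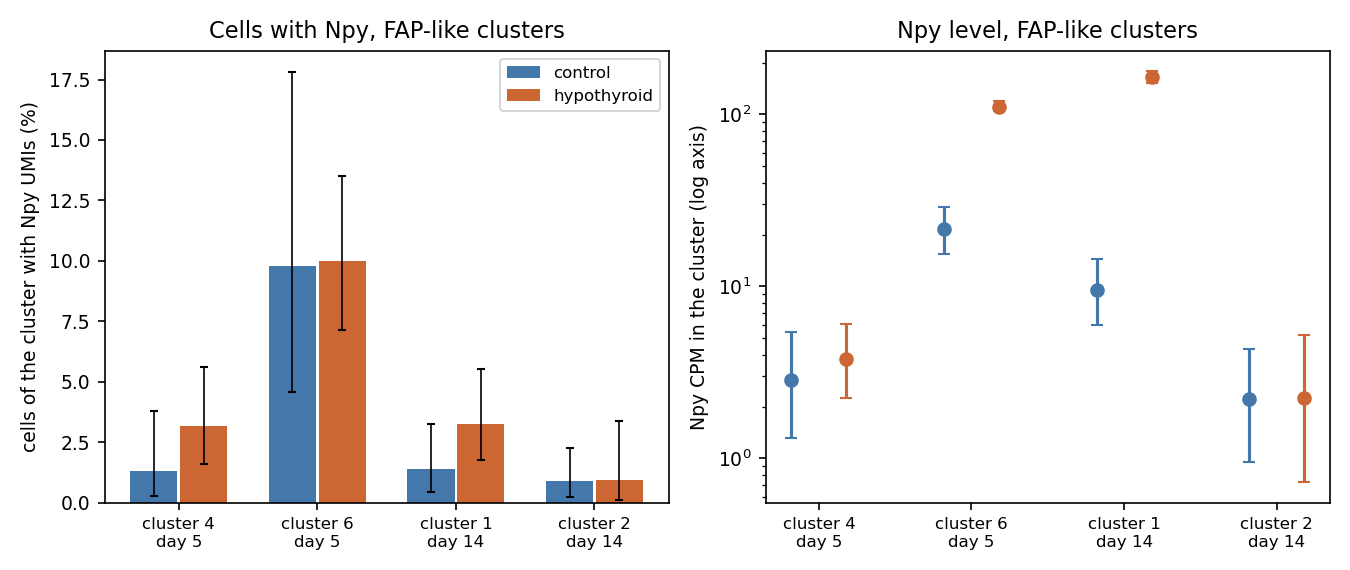
Share of cells with an Npy UMI (left, bars with exact binomial intervals) and Npy CPM on a log axis (right, points with exact Poisson intervals) in 4 clusters of FAP-like cells, control in blue and hypothyroid in orange. In cluster 6 on day 5 the shares were 9.78% and 10.0% while the levels were 21.5 and 111 CPM.

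FAP-like cells with and without Npy in the hypothyroid day 5 library had a similar summed level of the FAP markers, 27527 and 27092 CPM. The 6 chemokine markers stood at 49494 CPM in the 55 cells with Npy and 32383 CPM in the 823 without, and the median cell held 43605 and 8509.7 CPM. Cells with Npy were deeper, with a median of 23328 UMIs against 13870. They also differed in cluster mix, since 37 of the 55 with Npy and 333 of the 823 without were in cluster 6. The part of this mix in the chemokine levels was not tested. The myeloid markers stood at 618 CPM with Npy and 354 without (median cell 30.1 and 0). The hypothyroid to control ratio of Npy on day 5 was 7.35 (5.52 to 9.99) without the FAP-like cluster led by macrophage genes, and 13.3 (4.48 to 65.1) in FAP-like cells with no UMI of 6 markers of other classes. On day 14 the myeloid markers stood at 36.5 CPM in the 15 hypothyroid cells with Npy and 102 CPM in the 841 without. Ranked by the lower bound of the ratio, the leading genes between hypothyroid day 5 cells with and without Npy were Tnnc2, Acta1, Mylpf, Ckm and Tnni2, all genes of muscle fiber contraction or energy supply, at ratios of 7.85 to 9.52. Between 88.1% and 95.8% of the UMIs of these genes in the Npy cells came from 1 cell.

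Npy was not restricted to stromal cells. Myeloid-like cells held it in 92 of 718 hypothyroid cells on day 5 (12.8%, 10.5 to 15.5) and 19 of 157 on day 14 (12.1%, 7.45 to 18.3), a larger share of cells than among FAP-like cells of the same libraries. In control muscle 10 of 616 myeloid-like cells (1.62%, 0.781 to 2.97) held Npy on day 5 and 2 of 122 (1.64%, 0.199 to 5.80) on day 14. The levels were 61.7 CPM in hypothyroid and 9.44 CPM in control cells on day 5 (ratio 6.54, 4.53 to 9.77) and 117 and 8.29 CPM on day 14 (ratio 14.2, 5.42 to 52.6). Without the 5 top hypothyroid cells the ratios were 4.54 (3.12 to 6.84) and 4.31 (1.57 to 16.5), a smaller reduction than among FAP-like cells. The myeloid-like cells of both diets lay in different clusters on day 5, since a cluster led by Trem2, C1qa, C1qb, C1qc and Gpnmb, genes of phagocytic tissue macrophages, held 522 of the 718 hypothyroid and 96 of the 616 control cells. Of the hypothyroid myeloid-like cells with Npy, 90 on day 5 and 18 on day 14 were in this cluster. Within it, 17.2% of hypothyroid (14.1 to 20.8) and 8.33% of control cells (3.67 to 15.8) held Npy on day 5, at 77.6 and 39.0 CPM, and 13.1% and 2.60% on day 14, at 127 and 14.1 CPM. The summed FAP markers stood at 480.0 CPM in the hypothyroid day 5 myeloid-like cells with Npy and 784 CPM in those without, and at 1228 and 1196 CPM on day 14.

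Lymphoid-like cells served as the background for free RNA. Of 148 such cells 1 held a UMI in the hypothyroid day 5 library (0.676%, 0.0171 to 3.71) and 0 of 143 in that of day 14, which allows up to 2.55%. Their median depth was 2976 and 3381 UMIs, below that of the myeloid-like cells at 6344 and 6711. Endothelial-like cells held none in 32 and 222 cells of these libraries. Myogenic progenitor-like cells were nearer in depth to FAP-like cells on day 5, with medians of 13547 and 14208 UMIs in the hypothyroid library. In that library 4 of 182 of them held Npy (2.20%, 0.602 to 5.53), with 14 UMIs, 9 of them in 1 cell. On day 14, 0 of 29 hypothyroid myogenic progenitor-like cells held it. FAP-like and myeloid-like cells held 894 and 352 of the 1261 Npy UMIs of the hypothyroid day 5 library and 703 and 161 of the 864 of day 14. In the control day 14 library the largest part, 61 of 116 UMIs, was in 4 of 326 mural-like cells, and 49 of them were in 1 cell.

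**Figure D3:**
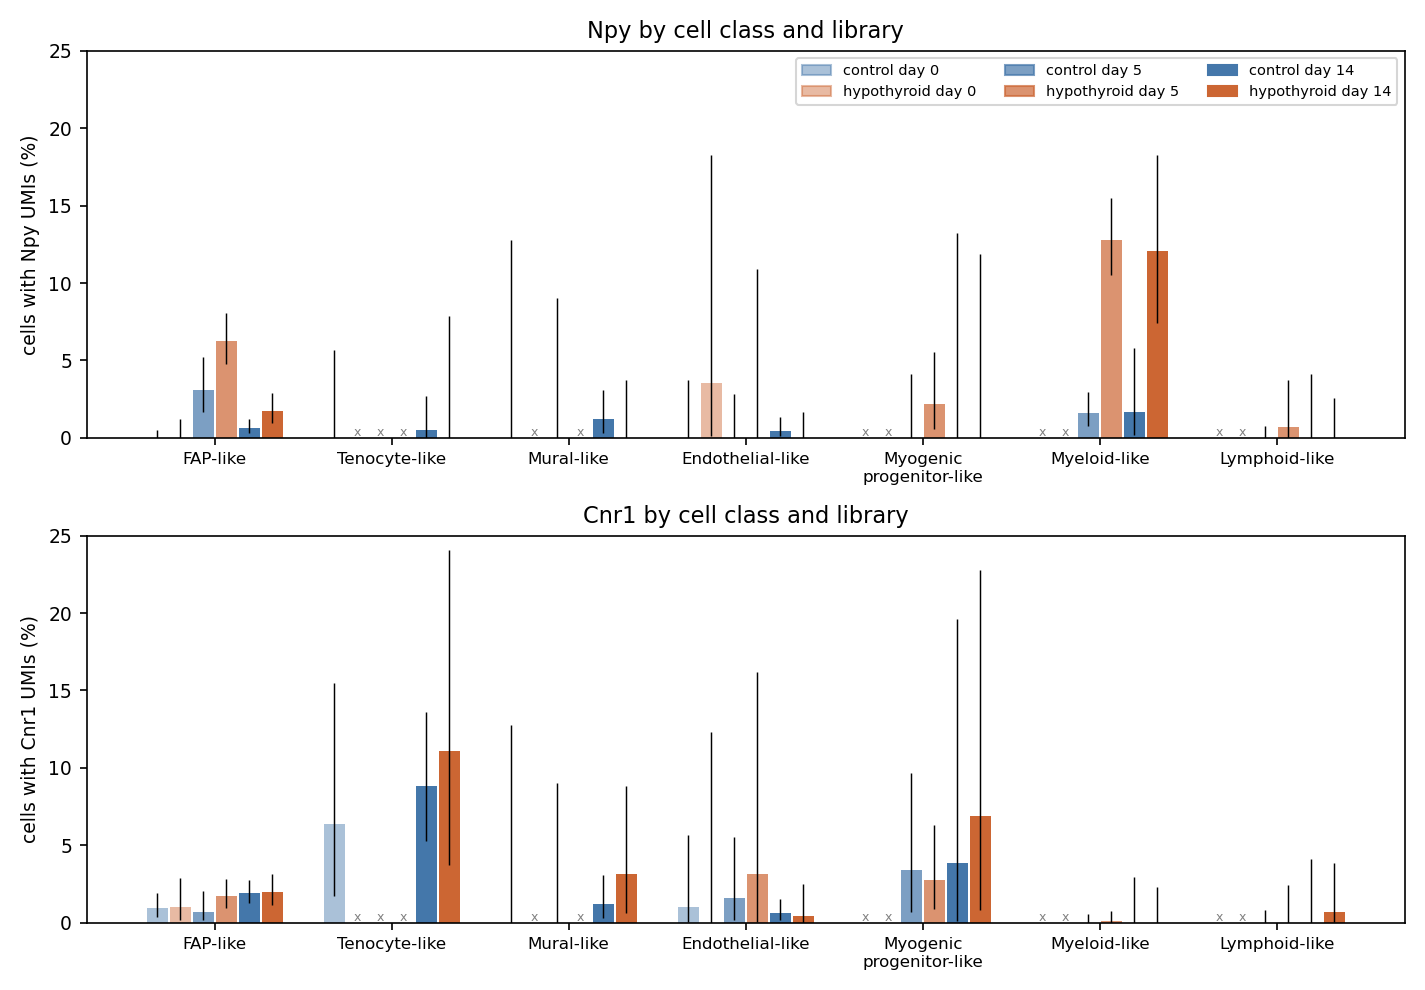
Share of cells with at least 1 UMI of Npy (top) and Cnr1 (bottom) in 7 cell classes of the 6 libraries, with exact binomial intervals, for classes of at least 20 cells (x marks smaller ones). The highest Npy shares were those of hypothyroid myeloid-like cells, 12.8% and 12.1%, and the highest Cnr1 shares those of tenocyte-like cells, up to 11.1%.

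Cnr1 showed another pattern, and the data went against a description of it as a gene of hypothyroid stromal cells in general. Before injury, 7 of 751 control FAP-like cells held 14 UMIs (3.16 CPM, 1.73 to 5.30) and 3 of 299 hypothyroid cells held 103 UMIs (70.2 CPM, 57.3 to 85.1), a ratio of 22.2 (12.7 to 42.0). Of all genes compared on that day, 2.56% were at least 2-fold higher in hypothyroid FAP-like cells. However, 101 of the 103 UMIs were in 1 cell, and without it the ratio was 0.435 (0.0480 to 1.90). The share of cells with Cnr1 was 0.932% in control (0.376 to 1.91) and 1.0% in hypothyroid muscle (0.207 to 2.90). No other gene with at least 20 UMIs in those cells had as large a share of its UMIs in its top cell.

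The cell in question had 14000 UMIs from 2711 genes, a barcode found in no other library, and Cnr1 as 0.721% of its transcripts. It held 87 UMIs of Dcn and 83 of Gsn, which are FAP markers, 2 of Col1a1 and 0 of Pdgfra. Markers of immune (Ptprc), endothelial (Pecam1) and tendon cells (Tnmd) were at 0, and Acta1, of muscle fibers, was at 15. Its most abundant transcripts were Cxcl1 with 1187 UMIs, Malat1 with 533, and Ccl2, Il6 and Ptgs2 with 295, 288 and 265, that is, chemokine, cytokine and prostaglandin synthesis genes. It fell in cluster 1, which held 2 of the 299 hypothyroid FAP-like cells of day 0.

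After injury Cnr1 was low in both diets. On day 5, 3 of 420 control FAP-like cells held 5 UMIs (0.826 CPM, 0.268 to 1.93) and 15 of 878 hypothyroid cells 17 UMIs (1.28 CPM, 0.744 to 2.04), a ratio of 1.54 whose interval (0.547 to 5.35) took in 1. On day 14, 29 of 1510 control cells held 44 UMIs (4.97 CPM, 3.61 to 6.67) and 17 of 856 hypothyroid cells 21 UMIs (2.60 CPM, 1.61 to 3.98). The summed level on day 14 was lower in hypothyroid muscle (ratio 0.524, 0.296 to 0.900), but the interval took in 1 without the control cell with the most UMIs (ratio 0.591, 0.330 to 1.03), and the shares of cells were alike at 1.92% and 1.99%. Of all genes compared, 5.9% were at least 2-fold lower on day 14, and Cnr1 stood just short of that fold. Apart from the single cell of day 0, no FAP-like cell held more than 5 UMIs. After thinning to 1000 UMIs, Cnr1 was left in 0 to 5 FAP-like cells per library, and no order between the diets was read from those shares.

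The day 14 FAP-like cells with Cnr1 were mostly in clusters 1 and 3. Cluster 1 held 16 of the 29 control and 11 of the 17 hypothyroid positive cells, at 9.56 and 3.55 CPM (ratio 0.372, 0.179 to 0.750). Cluster 3, with the interstitial markers, held 11 control and 4 hypothyroid positive cells, at 11 and 5.13 CPM (ratio 0.466, 0.114 to 1.43). In the progenitor cluster 2, 1 of 450 control cells and 0 of 211 hypothyroid cells held Cnr1. Both Npy and Cnr1 were thus present in cluster 1 on day 14, but they were found in the same FAP-like cell only once in the control and once in the hypothyroid day 5 library. The 2 cells compare with 1.52 expected over the 6 libraries from the product of the shares.

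The stromal class with the largest share of Cnr1 cells was not FAP-like but tenocyte-like, marked by Tnmd, Scx and Fmod. In these, 18 of 204 control cells on day 14 (8.82%, 5.31 to 13.6) and 5 of 45 hypothyroid cells (11.1%, 3.71 to 24.1) held Cnr1, at 20.3 CPM (13.3 to 29.7) and 24.1 CPM (10.4 to 47.4). The ratio was 1.19 (0.464 to 2.70). Before injury 4 of 63 control tenocyte-like cells held it (19.2 CPM, 6.25 to 44.9), against 3.16 CPM in the FAP-like cells of that library. The other libraries had 10 or fewer tenocyte-like cells. In mural-like cells of day 14 Cnr1 was at 1.91 CPM in control (0.522 to 4.90) and 8.06 CPM in hypothyroid muscle (3.24 to 16.6), the latter from 3 cells. Myeloid-like cells held 1 UMI in all 6 libraries together and lymphoid-like cells 1.

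**Figure D4:**
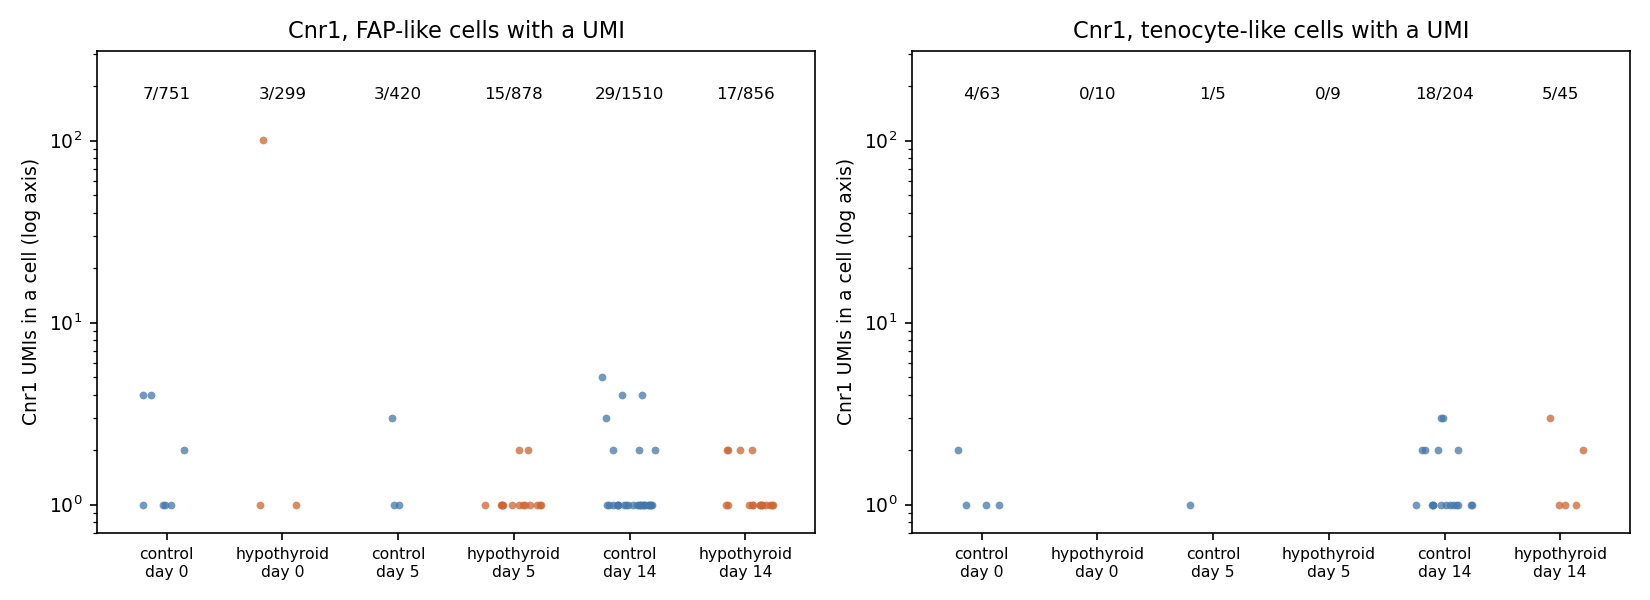
Cnr1 UMIs in each cell that held at least 1, on a log axis, in FAP-like cells (left) and tenocyte-like cells (right) of the 6 libraries, with the number of positive cells over all cells of the class above each column. Apart from 1 hypothyroid day 0 cell with 101 UMIs, no cell held more than 5.

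Across 32 pools of 1 cell class in 1 library with at least 30 cells each, the levels (log2(CPM + 1)) most like those of Npy were of Ppbp (Pearson r = 0.79), a platelet-type chemokine, Dhrs9 (r = 0.78), Cxcl3 (r = 0.73), Ifi202b (r = 0.72) and Hgf (r = 0.71), the hepatocyte growth factor. Those most like Cnr1 were of Arhgap21 (r = 0.78), Kcnk2 (r = 0.78), a potassium channel, Olfml1 (r = 0.76), Bmp4 (r = 0.76), a bone morphogenetic protein, and Ppl (r = 0.76). These are descriptions over pools that share libraries, and 19 of the 32 pools had no Npy and 12 no Cnr1. The correlation of Npy with Cnr1 was -0.18. The pool of hypothyroid day 0 FAP-like cells had Cnr1 at 70.2 CPM, with 98.1% of its UMIs in 1 cell. No correlation was recomputed without that cell.

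Of the NPY receptors listed, Npy1r was among the genes with values, and Npy2r, Npy4r, Npy5r and Npy6r were not. Its transcripts were scarce in FAP-like cells, with 0 to 7 UMIs per library, and most frequent in mural-like cells, the pericytes and smooth muscle of vessels. Npy1r was found in 10 of 39 control mural-like cells on day 5 (52.7 CPM, 29.5 to 86.9), in 64 of 326 on day 14 (50.7 CPM, 41.5 to 61.4), and in 15 of 96 hypothyroid mural-like cells on day 14 (24.2 CPM). Mural-like cells thus held the receptor transcript in libraries in which FAP-like and myeloid-like cells held that of the ligand. In the control day 14 library the largest part of the Npy UMIs, 61 of 116, was in mural-like cells themselves. The hypothyroid day 5 library had 10 mural-like cells and is not among those given. Signalling between these cells was not tested.

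Among the enzymes that process or cleave NPY, 5 genes could be compared in FAP-like cells on each day, and none was 2-fold higher in hypothyroid muscle. Of all genes compared, 2.56%, 3.55% and 1.85% were at least 2-fold higher on days 0, 5 and 14, so few or none would be looked for among 5. Dpp4, which encodes a surface peptidase that clips NPY, was lower on day 5, at 18.6 CPM in hypothyroid and 38.5 CPM in control cells (ratio 0.484, 0.403 to 0.581). It is also a marker of the progenitor clusters 2, 5, 8 and 9. On day 5 these made up 5.00%, 1.67%, 2.38% and 2.38% of control FAP-like cells, and 2.28%, 2.28%, 0.342% and 1.03% of hypothyroid ones. The part of this cluster mix in the ratio was not tested. Cpe, the carboxypeptidase that trims peptide precursors, was lower on day 14, at 14.3 and 30.3 CPM (ratio 0.471, 0.375 to 0.588). Of all genes compared, 9.07% were at least 2-fold lower on day 5 and 5.9% on day 14. Mme, Fap and Pam stayed within 2-fold on all 3 days. Pcsk1, the convertase that cuts peptide precursors, was at 0 in 5 libraries and at 3 UMIs in the control library of day 14.

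In the endocannabinoid list, 10 genes other than Cnr1 could be compared on day 0 and 12 on the other days. None was 2-fold higher, against 2.56%, 3.55% and 1.85% of all genes on days 0, 5 and 14. At least 2-fold lower were 2, 1 and 0 on these days, against 3.89%, 9.07% and 5.9% of all genes. The monoacylglycerol lipase gene Mgll, whose enzyme breaks down the endocannabinoid 2-AG, was lower on day 0 (11.6 against 30.9 CPM, ratio 0.375, 0.212 to 0.622) and on day 5 (3.45 against 9.25 CPM, ratio 0.373, 0.247 to 0.561), and stood at 12.3 and 23.3 CPM on day 14 (ratio 0.528, 0.411 to 0.674). The other gene past that fold, Fabp5 on day 0, rested on 2 hypothyroid UMIs and an interval of 0.0342 to 1.24. Dagla and Daglb, for the enzymes that make 2-AG, were within 2-fold wherever they could be compared. Faah, for the enzyme that degrades anandamide, had too few UMIs in FAP-like cells on every day. The median log2 ratio of the list was -0.22, -0.26 and -0.26 on the 3 days, and 0.01, -0.32 and -0.09 over all genes compared.

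**Figure D5:**
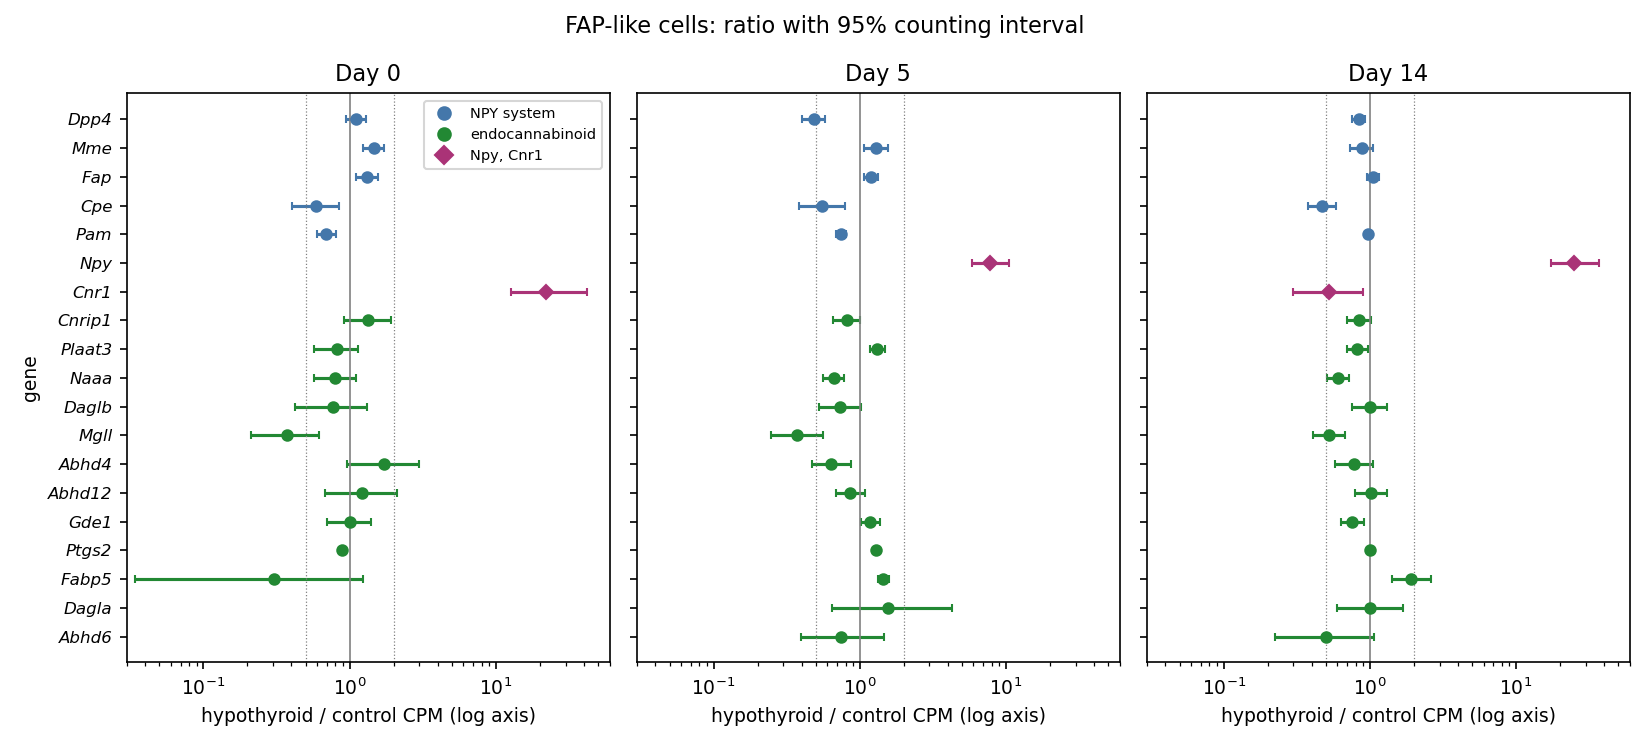
Ratio of hypothyroid to control CPM in FAP-like cells (log axis, with exact 95% counting intervals) for genes of the NPY list (blue circles) and the endocannabinoid list (green circles), with Npy and Cnr1 as purple diamonds, on day 0, 5 and 14; dotted lines mark 2-fold. Npy stood at 7.81 and 24.9 on days 5 and 14, and the other genes of both lists, leaving out Cnr1, lay between 0.302 and 1.92.

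The 3 further lists were read in the same cells. Of 11 genes of the adipogenic list compared on day 5, 4 were at least 2-fold higher in hypothyroid FAP-like cells and none lower, against 3.55% and 9.07% of all genes. The summed myeloid markers were also higher in those FAP-like cells, at 379 CPM in hypothyroid and 103 CPM in control muscle, and their part in the adipogenic genes, some of which macrophages also express, was not tested. The 4 genes were Pparg, the master regulator of fat cells (4.58 against 1.32 CPM, ratio 3.46, 1.65 to 8.38), Fabp4 (48.9 against 7.77 CPM, ratio 6.29, 4.68 to 8.65, with shares of cells of 7.40% and 7.86%), Cd36 (7.81 against 1.49 CPM, ratio 5.25, 2.66 to 11.8) and Dlk1 (122 against 52.4 CPM, ratio 2.32, 2.06 to 2.63). On day 0 Cebpa alone of 9 genes was past that fold (ratio 2.49, 1.69 to 3.66), against 2.56% of all genes higher and 3.89% lower. On day 14 Dlk1 alone of 11 was, at 754 and 79.9 CPM (ratio 9.43, 8.72 to 10.2), against 1.85% and 5.9%. Dlk1, a preadipocyte protein, was also a leading gene of cluster 1. That cluster made up 46.5% of hypothyroid and 23.6% of control FAP-like cells on day 14. In the thyroid list, 0 of 9 genes were higher and 0 lower on day 0, against 2.56% and 3.89% of all genes. On day 5, 0 of 8 were higher and 3 lower, against 3.55% and 9.07% of all genes. Dio3, the deiodinase that inactivates thyroid hormone, stood at 4.65 and 45.6 CPM (ratio 0.102, 0.0762 to 0.135). Dio2, the activating deiodinase, had a ratio of 0.416 (0.337 to 0.514) and Klf9, a thyroid hormone target, one of 0.439 (0.417 to 0.461). The day 0 ratios were 0.704 for Dio2 (0.497 to 0.978) and 1.12 for Klf9 (1.06 to 1.17), and Dio3 then had too few UMIs to compare. On day 14 Hr alone of 9 genes was at least 2-fold lower (ratio 0.494, 0.369 to 0.656) and none was higher, against 5.9% and 1.85% of all genes. Of 7 nerve-derived and glial cues compared on day 14, Ntf3 was lower (4 against 29 UMIs, ratio 0.151, 0.0387 to 0.431). Lif was higher (257 against 85.0 CPM, ratio 3.02, 2.78 to 3.29), against 5.9% of all genes lower and 1.85% higher. On day 0 and 5 none of these cues passed that fold with an interval that left out 1. The lists were chosen with earlier results of these data known.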

How the data were processed

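Per the study's methods and labels, reads were aligned to mm39 with the Cell Ranger aligner, transcripts were quantified in Partek Flow on GENCODE models, and cells were filtered on UMIs, genes and mitochondrial share. The Cell Ranger version is not given in the sources used here. The values the authors deposited are log2(CPM + 1) per gene and cell. Whole UMIs were recovered by dividing CPM by its most frequent value above 0 in each cell, and 99.9340% of the values above 0 lay within 0.05 of a whole UMI. Some files repeat or append cells of other runs, so only columns before the barcode order restarts were used. Cells were clustered without Npy and Cnr1 (2000 variable genes, 20 principal components, 15 neighbours, leidenalg 0.10.2, resolution 1, and 0.5 for FAP-like cells). A cluster took the name of a class when at least 3 of its markers were 2-fold above the median of clusters and in 25% of its cells, unless it had under 20 cells or its 10 leading genes held more markers of another list. The comparison with the median of clusters replaced one with all other cells after the clusters had been seen. No doublet caller was run, and cells with markers of other classes were left out in an alternative instead. CPM, shares and ratios carry exact Poisson, Clopper-Pearson and conditional binomial intervals (scipy 1.17.1). Of these, only the ratio interval was tried on simulated data. The simulated counts were Poisson, without the clumping of UMIs in a few cells, so that trial says nothing on clumped genes such as Npy. With 1 library per group there is no test. Genes named were both members, list genes at least 2-fold apart with an interval that left out 1, the 5 genes most like each member over pools, the 5 genes with the highest lower bound of the with-to-without ratio in hypothyroid libraries with at least 20 positive FAP-like cells (only Npy on day 5), and stromal state markers. Members and lists were chosen with earlier results of these data known. Genes outside this rule, such as those of the single Cnr1 cell, were named after their values were seen.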

Additional observations from a re-analysis of the deposited data

Results flagged for a closer look

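Npy was also found in columns that were not used, whose condition is not known. In the third run of columns of the control day 14 file it stood at 22.8 CPM, with 295 UMIs in 30 of 1649 cells, and in the third run of the hypothyroid day 5 file at 10.4 CPM, with 111 UMIs in 28 of 1626 cells. The control libraries used here had at most 7.04 CPM over all cells. The second run of the control day 0 file, with 816 Npy UMIs, consists of 1152 cells that also stand in the hypothyroid day 14 library.

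The hypothyroid to control ratio of Cnr1 in FAP-like cells was 22.2 on day 0 and 0.524 on day 14, on opposite sides of 1. The difference between the days was not tested, and the day 0 value was 0.435 without the single cell that held 101 UMIs.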

How the results depend on the processing

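No paired analysis was possible because each group was 1 library. Of 54 ratios recomputed, 35 stayed within the counting interval of the reported value, 13 moved out of it and 6 changed side of 1 although the reported interval left out 1; the cause was not tested except where cells were left out by construction. No ratio exists for Npy on day 0, nor for 6 settings whose control cells held no UMI. For Npy on day 5 (7.81), the ratio was 13.3 in cells without UMIs of 6 markers of other classes. Alternatives chosen after seeing the data gave 2.99 without the 5 top hypothyroid cells and 2.02 as a ratio of shares. For Npy on day 14 (24.9), it was 8.94 with classes set cell by cell, 44.3 with 1 UMI taken as the smallest value, 8.33 with all columns, 8.98 as a mean over cells, 11.8 without the top cell, 0.281 in cells of 1000 to 8000 UMIs (0.0321 to 1.14, a subset that holds none of the 6 cells with 31 UMIs or more), 2.04 without 5 cells and 2.65 as a ratio of shares. For Cnr1 on day 0 (22.2), it was 11.5 with the smallest value, 10.7 as a mean over cells, 0.850 in cells of 1000 to 8000 UMIs, 0.435 without the top cell, 0 without 5 cells and 1.08 as a ratio of shares. For Cnr1 on day 14 (0.524), it was 1.02 in cells of 1000 to 8000 UMIs and 1.03 as a ratio of shares. For Cnr1 on day 5 (1.54, with an interval that took in 1), it was 0.670 with all columns and 0.915 without 5 cells, both below 1 and among the 35. Of 108 shares, 24 moved, 9 of them after thinning. Depth limits every share of cells with a UMI.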
